A study of Mus musculus with 15 samples.

Results

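Optic nerves that had been crushed 7 days before collection were compared with nerves that had been exposed in a sham operation and left uncrushed, in adult C57BL/6J mice that had all received AAV-null. AAV-null is an adeno-associated virus of serotype 2, a gene delivery vector, injected into the vitreous of the eye as the control for a vector that carries the cytokine CNTF. Both groups therefore hold injected animals, and neither is an untouched nerve. The crush was made 2 weeks after the injection, and the labels give no times for the sham group. All libraries whose labels name AAV-null were taken, 5 crushed and 5 sham, which are 10 of the 15 in the series, and each group is numbered 2 to 6. The other 5 libraries, from crushed nerves of mice given AAV-CNTF, entered only the shared estimate of spread. The labels call the replicates biological and do not say how many nerves went into each, so the p-values measure the spread between these samples.

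The optic nerve is a white matter tract. It holds the axons of retinal ganglion cells but not their cell bodies, and its own cells are oligodendrocytes, which make the myelin sheath, astrocytes, NG2 glia (oligodendrocyte precursors), microglia, and the cells of vessels and sheath. A crush severs the axons, and the part cut off from the cell body breaks down in Wallerian degeneration. Microglia and incoming macrophages take up the debris of axon and myelin, and a scar of glia, fibroblasts and matrix forms at the site of the crush. RNA here was taken from nerve tissue as a whole, so each value is a sum over all of these cells, and which stretch of the nerve was taken is not given in the labels.

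Crush AAV-null replicate 6 stood apart from the other libraries of its group before any gene was tested. It had 3.18% of listed genes at 0, against 0.976% to 2.32% in the other 14 libraries, and lay at -99.7 on the second principal component, against -8.98 to 24.0. In it, 438 genes lay more than 2 log2 units below their group mean, against 119 to 273 in the other 9 AAV-null libraries. Without it, 1922 genes were called higher and 1685 lower after crush, against 2087 and 1825 with it. On the first principal component the sham libraries lay between 54.8 and 87.0 and the crushed ones between -47.2 and -20.3. Depth over the listed genes was 19856688 to 26411929 expected counts in sham and 19918858 to 29138927 in crush AAV-null libraries. The markers fixed for each nerve cell type were present in all 10 libraries, with Mbp of oligodendrocytes at 10605 CPM or more, Gfap of astrocytes at 2453 or more, Cspg4 of NG2 glia at 58.1 or more and Cx3cr1 of microglia at 101 or more (CPM, the count of a gene scaled by the TMM-adjusted size of its library). Between sham and crush, 6 of 6 oligodendrocyte markers and 5 of 6 astrocyte markers were lower, while 3 of 5 NG2 glia markers and 5 of 6 microglia markers were higher. Over all tested genes 12.9% were lower and 14.7% higher. The part of these marker shifts in the results below was not tested.

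The change was broad and lopsided in size. Of 14194 genes tested with edgeR's quasi-likelihood test, 2087 (14.7%) were higher and 1825 (12.9%) lower after crush at a Benjamini-Hochberg adjusted p under 0.05, and the median log2 fold change over all tested genes was 0.00. All counts of gene groups below are to be read against these 2 shares. Large changes were mostly rises, since 1000 genes rose and 493 fell by a factor of at least 2, 367 and 75 by a factor of at least 4, and 72 and 27 by a factor of at least 16. In 1425 of the genes called higher and 1319 of those called lower, the 5 crushed and 5 sham libraries did not overlap. Over all 14194 tested genes, called or not, the crushed libraries lay wholly above sham in 1495 and wholly below in 1432. Lack of overlap comes from the same values as the call and is not separate support for it. Some genes kept their level closely through the injury. Timp3, an inhibitor of matrix proteases, stood at 514, 524, 579, 528 and 488 CPM in sham replicates 2 to 6 and at 539.5, 518, 502, 550.1 and 522 CPM in crush replicates 2 to 6, and the ranges overlapped. Among genes with a mean of at least 100 CPM, the others with the smallest log2 fold changes were Rbm39, a splicing factor, Ap2b1, an adaptor subunit of clathrin coats, Ctdsp1, a phosphatase, and Rac1, a small GTPase of the actin cytoskeleton.

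**Figure D1:**
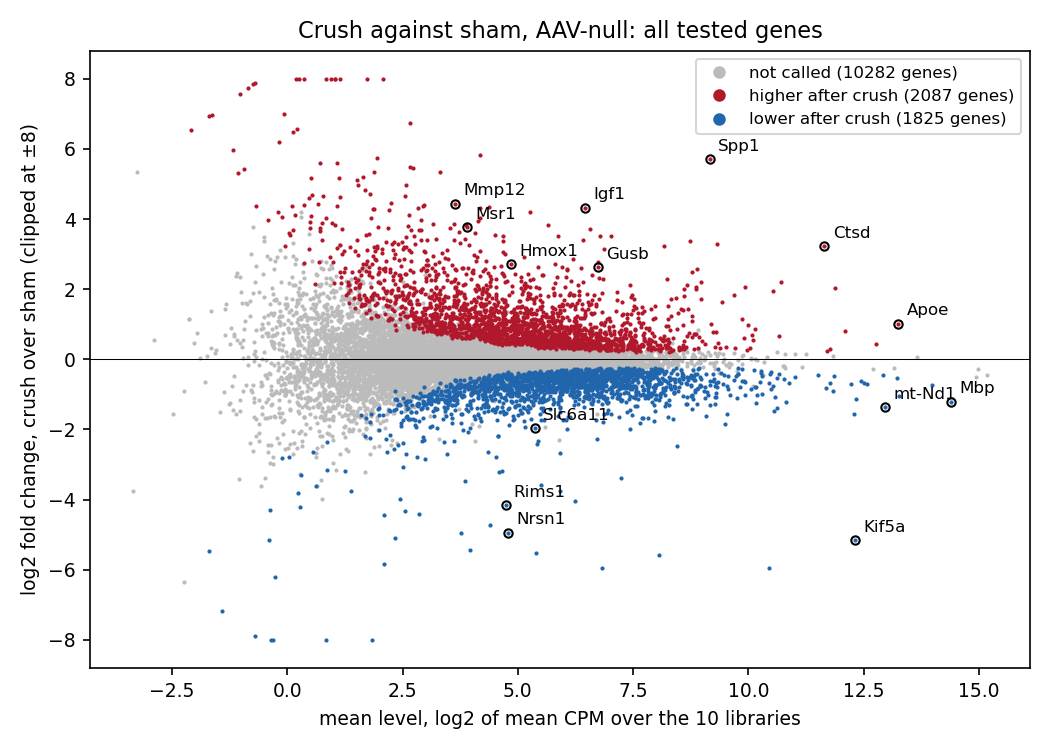
Log2 fold change, crush over sham (vertical axis, clipped at 8 either way), against the log2 of the mean CPM over the 10 libraries (horizontal axis) for all 14194 tested genes, with 2087 called higher in red, 1825 called lower in blue and the rest in grey. The fan of red points reaches further from 0 than the blue one at most levels, and among abundant genes Spp1 and Ctsd stand at the top and Kif5a at the bottom.

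Among genes of axonal transport the most marked change was that of Kif5a, the neuronal kinesin heavy chain that carries cargo along axonal microtubules (chromosome 10, 127225696 to 127263348, minus strand, mm10). It stood at 10292, 8599.5, 9503, 11920.1 and 9494 CPM in sham replicates 2 to 6 and at 404, 174, 236, 285 and 294 CPM in crush replicates 2 to 6. Every crushed nerve lay far below every sham nerve, and the log2 fold change was -5.16, SE 0.21, adjusted p = 2.92e-12. By deposited FPKM, which is scaled by gene length, Kif5a was the 45th most abundant listed gene in sham nerves and the 1255th in crushed nerves. In these bulk samples, fewer cells or axons of a type and less RNA in each cannot be told apart. Its relative Kif5c fell by 2.28 on the log2 scale (SE 0.17, adjusted p = 6.21e-09), though reads of such similar genes may be divided between them. The transport list as a whole was mixed, with 15 of 26 tested genes lower and 5 higher and a median log2 fold change of -0.60. The 5 higher genes were Dpysl3, Tubb6, Tubb2a, Tubb2b and Map1b, members of tubulin and growth-associated families (Tubb2a and Map1b named after their values were seen). Dpysl3 stood at 153, 145, 209, 151 and 122 CPM in sham and at 271, 424, 309.9, 362 and 390.3 CPM in crushed nerves, with no overlap (log2 fold change 1.17, SE 0.15, adjusted p = 4.77e-06). Tuba1a, an abundant alpha tubulin, had a log2 fold change of -0.01 (SE 0.09) and did not pass the test.

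Genes of transmitter release were measured in the nerve although it holds no nerve terminals of its own, and most were lower after crush. Of 19 tested synapse genes 11 were lower and 1 was higher, with a median of -0.84. Rims1, a scaffold of the presynaptic active zone, stood at 57.2, 21, 48.8, 78.1 and 46.8 CPM in sham and 2.64, 2.67, 1.32, 4.11 and 3.28 CPM in crushed nerves, which do not overlap (log2 fold change -4.16, SE 0.48, adjusted p = 1.35e-06). The list's summed level lay between 3295 and 5248 CPM in sham and between 399 and 552 CPM in crushed nerves. Much of the sham sum came from Unc13c, a priming factor of vesicles, at 2811, 2195, 2254, 3833 and 2700.4 CPM in sham and 57.9, 24.9, 34, 55.9 and 47.9 CPM in crushed nerves, and from Rph3a, a vesicle-bound Rab effector, at a mean of 525 CPM in sham. Of the 19 tested members 7 did not pass the test. Syt4, a synaptotagmin of dense-core and other vesicles, went the other way, from 0.637, 4.94, 3.63, 1.18 and 1.46 CPM to 14.9, 18.1, 13.3, 9.48 and 12.8 CPM, again without overlap (log2 fold change 2.53, SE 0.42, adjusted p = 8.48e-05). Nrsn1, a vesicle protein of neurites, stood at 61.7, 48.1, 48, 58.4 and 51.3 CPM in sham nerves and at 2.84, 2.36, 2.09, 0.812 and 0.677 CPM in crushed nerves (log2 fold change -4.94, SE 0.46, adjusted p = 7.86e-08). Vwa5b2 and Cacng3, an auxiliary AMPA receptor and calcium channel subunit, lay at mean levels of 40.3 and 26.3 CPM in sham and of 1.5 and 0.845 CPM after crush, with no overlap in either. Panx2, a pannexin channel, was at 0 CPM in 3 crushed nerves and at 3.28 CPM or less in the other 2, against at least 10.6 CPM in every sham nerve.

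At the node of Ranvier, where sodium and potassium channels cluster between myelin segments, 10 of 19 tested genes were lower and 2 higher (median -0.68). Kcnq3, a potassium channel of nodes, stood at 251, 254, 226, 296 and 306 CPM in sham and at 131, 86.8, 153, 111 and 123 CPM after crush, with every crushed nerve below every sham nerve (log2 fold change -1.14, SE 0.13, adjusted p = 1.13e-06). The count of higher genes was 1 without sham replicate 3 or 5 or crush replicate 2 or 6 and 3 without crush replicate 3, and Gldn, a nodal matrix protein, was called higher without any one library. Nfasc, the cell adhesion protein that axon and glia both use at the node, was level, with a log2 fold change of -0.01 (SE 0.10, adjusted p = 0.959).

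Oligodendrocyte genes outside the myelin proteins were mostly lower. In the list of sphingolipid and fatty acid enzymes that build myelin lipid, 19 of 25 tested genes were lower and 0 higher (median -0.55). limma-voom and the fit of the 10 libraries alone each called 1 gene of it higher. Fa2h, which adds the hydroxyl group of myelin galactolipids, stood at 676, 671, 530.5, 599.8 and 701 CPM in sham and 259, 229, 278, 192 and 227 CPM in crushed nerves. The groups lay well apart (log2 fold change -1.42, SE 0.13, adjusted p = 5.22e-08). Aspa, which frees acetate from N-acetylaspartate for lipid synthesis, fell by 1.57 on the log2 scale (SE 0.15, adjusted p = 7.71e-08), and the desaturases Scd1 and Scd2 fell by 1.31 and 0.81 (SE 0.11 and 0.10). Among 17 regulators of the lineage, 11 were lower and 1, Tcf7l2, was higher, or 2 without crush replicate 6 (median -0.54). Hdac11, a deacetylase of maturing oligodendrocytes, and Sox8 fell by 1.07 and 1.00 on the log2 scale (SE 0.15 and 0.13). Tcf7l2, a Wnt-responsive factor of newly forming oligodendrocytes, stood at 78.5, 78.1, 81.4, 81.3 and 81 CPM in sham and at 129, 98.2, 111, 120.1 and 95.4 CPM after crush (log2 fold change 0.47, SE 0.10, adjusted p = 0.00126). Its 5 sham values span only 78.1 to 81.4 CPM, and every crushed nerve lay above them.

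Gap junction genes of both macroglial types were among those that fell. In the list of connexins and glial channels 8 of 12 genes were lower and 0 higher (median -0.59). Gja1, Gjb6 and Kcnj10 are also counted in the list of astrocyte transport genes below. The oligodendrocyte connexins Gjc3 and Gjb1 had log2 fold changes of -1.04 and -0.73 (SE 0.11 and 0.14), against -0.43 (SE 0.11) for the astrocyte connexin Gja1, and Gjb6 did not pass the test.

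Genes with which astrocytes take up transmitter, potassium and water were lower almost throughout. Of 19 tested transport genes 16 were lower and 0 higher (median -0.54). Slc6a11, a GABA transporter of astrocytes, fell most, from 73.2, 72.9, 50, 60.6 and 73.3 CPM in sham to 18.1, 11.4, 26.4, 14.9 and 13.6 CPM in crushed nerves, with no overlap (log2 fold change -1.97, SE 0.21, adjusted p = 5.08e-07). Slc39a12, a zinc transporter, had a log2 fold change of -1.57 (SE 0.16, adjusted p = 2.06e-07). Kcnj10, the inward rectifier that buffers potassium, stood at 868, 772, 752, 686 and 796 CPM and at 499, 385, 509, 446 and 467 CPM (log2 fold change -0.75, SE 0.10, adjusted p = 6.39e-06). Grm3, a metabotropic glutamate receptor found on astrocytes, fell further, from 79.8, 72.9, 55.5, 81.4 and 72.2 CPM to 14.5, 8.4, 16.5, 11.8 and 16.2 CPM, and its groups lay far apart (log2 fold change -2.42, SE 0.24, adjusted p = 2.28e-07).

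Genes of cholesterol handling changed in both directions. Cells that sense low sterol raise uptake and synthesis through the transcription factor Srebf2, and cells loaded with sterol export or store it. In the list of sensing, uptake, storage and efflux genes, 11 of 26 were higher and 9 lower, which left a median of 0.08. Genes of sterol sensing were among the lower ones. Insig1, which holds the Srebf2 precursor in the endoplasmic reticulum, fell by 1.51 (SE 0.22, adjusted p = 2.12e-05). Srebf2 itself fell from 339.9, 337, 268, 288 and 333 CPM to 145, 162, 167, 174 and 161 CPM, with all crushed nerves below all sham nerves (log2 fold change -0.95, SE 0.09, adjusted p = 5.94e-08). Genes of lipid carriage and storage were among the higher ones. Apoe, the main lipid carrier of the nervous system, stood at 6216, 5873, 7272, 6335 and 6675 CPM in sham and at 13382, 13046, 11647, 14521 and 12929.8 CPM after crush (log2 fold change 1.02, SE 0.13, adjusted p = 5.99e-06), and by FPKM moved from the 20th to the 9th place among listed genes. Ch25h, which makes 25-hydroxycholesterol, an oxysterol that blocks Srebf2 processing, rose from 3.82, 8.17, 6.1, 2.63 and 6.44 CPM to 33.8, 78.2, 36.9, 39.3 and 39.3 CPM, without overlap (log2 fold change 3.06, SE 0.31, adjusted p = 2.41e-07). Plin2, the coat protein of lipid droplets, and Apoc2, a lipoprotein component, had log2 fold changes of 2.56 and 4.31 (SE 0.24 and 0.58).

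The promoter of Srebf2 is shown because it holds a sterol response word, the letters through which Srebf2 protein is known to bind genes of its own pathway. The window runs from 250 bases before to 50 bases after the annotated start (RefSeq, GRCm38.p6, chr15:82147019-82147318, plus strand), is written 5′ to 3′, and has the word TCACCCCA in capitals.
Srebf2: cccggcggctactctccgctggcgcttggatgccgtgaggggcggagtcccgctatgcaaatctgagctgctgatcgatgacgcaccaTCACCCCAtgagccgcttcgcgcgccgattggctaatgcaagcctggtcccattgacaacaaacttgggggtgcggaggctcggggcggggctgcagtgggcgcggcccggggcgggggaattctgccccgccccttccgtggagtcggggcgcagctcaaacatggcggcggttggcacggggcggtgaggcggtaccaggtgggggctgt
The word begins 162 bases before the start. Of the 22 genes of the cholesterol list with a promoter window, 2 held TCACCCCA on either strand, Apoe and Srebf2 (9.09%), against 1.69% of the 10620 tested genes with a window. A gene with several windows was counted once, if any of them held the word. These 2 genes moved in opposite directions after crush.

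The lysosome, where engulfed material is digested, was represented by enzymes that were mostly higher. Of 33 tested lysosomal hydrolases 27 were higher and 0 lower (median 1.22). Ctsd, the aspartic protease cathepsin D (chromosome 7, 142375911 to 142388038, minus strand, mm10), stood at 606, 639, 844, 497 and 528 CPM in sham and at 5320.5, 6889, 4389.9, 5910.5 and 6543 CPM in crushed nerves. The lowest crushed nerve lay at 4389.9 CPM against a highest sham value of 844 CPM (log2 fold change 3.22, SE 0.18, adjusted p = 1.56e-10), and by FPKM the gene moved from the 151st to the 23rd place. Gusb, the beta-glucuronidase that removes sugar acids from glycosaminoglycans, stood at 27.1, 21.2, 46.8, 27.6 and 25.8 CPM and at 165, 254, 121, 162 and 218 CPM (log2 fold change 2.63, SE 0.22, adjusted p = 1.78e-08). Galns, which removes sulfate from keratan and chondroitin chains, rose by 2.53 on the log2 scale (SE 0.22, adjusted p = 4.92e-08). Hpse, the heparanase that cuts heparan sulfate, was at 1.02 CPM or less in every sham nerve and at 6 CPM or more in every crushed nerve.

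Membrane proteins of the lysosome rose less evenly, with 11 of 28 higher and 1 lower, or 2 lower without crush replicate 3 (median 0.35). Cd68, the lysosomal glycoprotein of macrophages, stood at 50.7, 42.4, 78, 49.2 and 53.8 CPM in sham and at 529, 757, 359, 526 and 426 CPM after crush (log2 fold change 3.24, SE 0.20, adjusted p = 4.98e-10). Atp6v0d2, the proton pump subunit of osteoclasts and macrophages, was at 0 CPM in 3 sham nerves and at 1.35 CPM or less in the other 2, against 5.56 CPM or more in every crushed nerve. Lamp1, a lysosomal membrane protein of all cells, had a log2 fold change of 0.08 (SE 0.09) and did not pass the test. Scarb2, the receptor that brings glucocerebrosidase to the lysosome, was lower, at -0.29 (SE 0.09, adjusted p = 0.0158).

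The promoter of Ctsd is shown because it holds the core of the CLEAR word, TCACGTGA, which the lysosomal regulator Tfeb is known to bind. The window is from RefSeq (GRCm38.p6, chr7:142387778-142388077, minus strand), with the word in capitals.
Ctsd: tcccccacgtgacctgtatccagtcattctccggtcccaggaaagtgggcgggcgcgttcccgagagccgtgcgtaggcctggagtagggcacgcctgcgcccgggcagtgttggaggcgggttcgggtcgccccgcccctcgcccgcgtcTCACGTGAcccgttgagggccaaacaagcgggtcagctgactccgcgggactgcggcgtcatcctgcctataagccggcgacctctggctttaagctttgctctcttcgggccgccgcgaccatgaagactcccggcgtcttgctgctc
It begins 99 bases before the start and reads the same on both strands. Of 26 lysosomal hydrolases with a window 3 held this word, Ctsa, Ctsd and Gla (11.5%), against 2.18% of all tested genes with a window. Among all genes called higher the share was 1.86%.

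**Figure D2:**
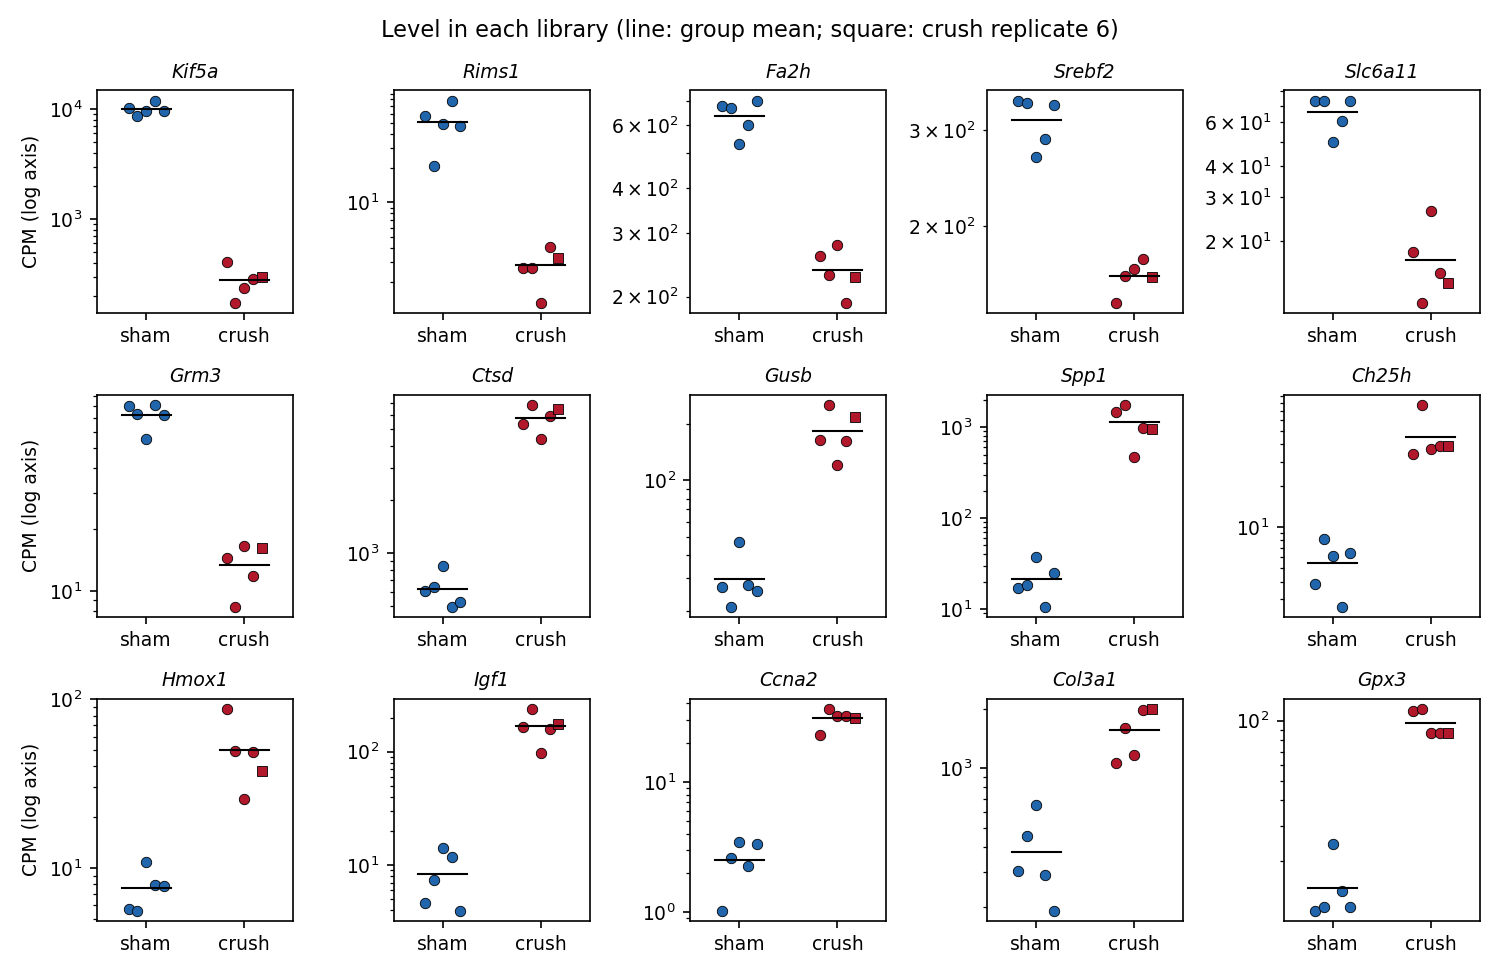
CPM on a log axis in each of the 5 sham (blue) and 5 crushed (red) libraries for 15 genes, with a line at the group mean and a square for crush replicate 6. In all 15 panels the 2 groups do not overlap, and crush replicate 6 lies on the side of the other crushed libraries in each. The 15 genes were chosen among genes called in these same data, so neither point is a separate result.

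Receptors for debris were mostly higher, and a few were lower. Of 26 tested engulfment genes 20 were higher and 4 lower (median 1.01). Stab1, a scavenger receptor of macrophages, stood at 23.1, 20.1, 27.8, 18.7 and 27.1 CPM in sham and at 144, 329.6, 127, 241 and 204 CPM after crush (log2 fold change 3.16, SE 0.24, adjusted p = 7.64e-09). Msr1, the scavenger receptor that takes up modified lipoprotein, stood at 2.89, 1.8, 3.49, 1.72 and 0.324 CPM and at 31.4, 46.6, 10.3, 23.3 and 26.5 CPM (log2 fold change 3.76, SE 0.46, adjusted p = 2.61e-06). Both genes had no overlap between groups. Olr1, another receptor for oxidized lipoprotein, was at 0.405 CPM or less in sham and at 2.35 CPM or more after crush. Tyrobp, the adaptor through which Trem2 signals, rose by 2.77 on the log2 scale (SE 0.20, adjusted p = 2.87e-09). The 4 lower genes were Megf10, with which astrocytes engulf synapses and axon debris, the receptor kinase Tyro3, and the Rac activators Elmo1 and Dock1 (Dock1 named after its values were seen). Megf10 stood at 208, 159.7, 174, 179.6 and 209 CPM in sham and at 110.1, 84.4, 116, 93.9 and 77.7 CPM in crushed nerves, which do not overlap (log2 fold change -0.95, SE 0.12, adjusted p = 6.12e-06). Tyro3 fell by 0.91 (SE 0.12), while its sister receptors Axl and Mertk (also named after their values were seen) were among the higher genes.

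Receptors and signals of myeloid cells were mostly higher as well. Of 27 Fc, Toll-like and lectin receptors 18 were higher and 1, Tlr3, was lower (median 1.27). Tlr7, the endosomal sensor of single-stranded RNA, stood at 5.15, 4.94, 15.3, 6.22 and 9.35 CPM in sham and at 60.5, 82.4, 49.5, 46.1 and 71.8 CPM after crush (log2 fold change 2.92, SE 0.27, adjusted p = 7.33e-08). Fcer1g, the common signalling chain of Fc receptors, rose by 2.31 (SE 0.17, adjusted p = 3.49e-09). Of 31 myeloid cytokines and their receptors 19 were higher and 0 lower (median 1.32). Spp1, the secreted phosphoprotein osteopontin (chromosome 5, 104435118 to 104441050, plus strand, mm10), rose from 17.1, 18.2, 37.3, 10.6 and 24.7 CPM in sham to 1481, 1770.3, 464, 973 and 945 CPM in crushed nerves. Crush replicate 4 was the lowest of the crushed nerves and still lay above every sham nerve (log2 fold change 5.70, SE 0.41, adjusted p = 2.38e-09), and by FPKM Spp1 moved from the 4394th to the 71st place. Csf2rb and Tnfrsf1b, receptor chains for GM-CSF and for tumour necrosis factor, rose by 2.35 and 2.23 (SE 0.28 and 0.20). Among 18 receptors with which microglia sense purines and other cues, 10 were higher and 1, Adora1, was lower, or 2 without crush replicate 3 or under limma-voom or upper quartile scaling (median 0.69). P2ry6, which responds to the uridine diphosphate of damaged cells, and Sirpa, the receptor of the Cd47 signal, rose by 1.62 and 1.51 (SE 0.18 and 0.14).

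Among 24 transcription factors of the myeloid lineage 15 were higher and 2 lower (median 0.97). Spi1, which encodes PU.1, the master regulator of macrophages, stood at 17.2, 14.1, 25.5, 17.4 and 9.55 CPM in sham and at 52.9, 54.6, 60.2, 74.6 and 59.5 CPM after crush (log2 fold change 1.85, SE 0.19, adjusted p = 3.76e-07). Runx1 rose by nearly as much, by 1.84 on the log2 scale (SE 0.12), and did not overlap between groups. The 2 lower genes were Sall1, which in microglia keeps their resting identity, at -0.45 (SE 0.13, adjusted p = 0.0103), and Maf. The count of lower genes was 1 without sham replicate 3 or crush replicate 4 or 6. Of the 6 microglia markers 5 were higher and 0 lower, and which cells of the nerve gave the Sall1 value was not tested.

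Macrophages that digest cells release iron from heme and either store or export it. Hmox1, which opens the heme ring, stood at 5.73, 5.58, 10.8, 7.94 and 7.85 CPM in sham and at 88, 49.2, 25.8, 48.7 and 37.7 CPM in crushed nerves (log2 fold change 2.71, SE 0.29, adjusted p = 4.49e-07). Slc11a1, the metal transporter of the phagosome, rose by 2.07 (SE 0.19, adjusted p = 8.52e-08). The 2 chains of ferritin, the iron store, parted. The light chain gene Ftl1 stood at 333, 329.5, 444, 346 and 369 CPM in sham and at 1475, 1638, 939, 1262 and 1175 CPM after crush (log2 fold change 1.83, SE 0.15, adjusted p = 1.96e-08). The heavy chain gene Fth1 stood at 7407, 7558, 7419, 6772 and 8634 CPM in sham and at 5247, 4169.9, 5133, 5551 and 3263 CPM after crush, with every crushed nerve below every sham nerve (log2 fold change -0.69, SE 0.14, adjusted p = 0.000513). Ferritin genes have many near-identical processed copies, so how reads were divided among them is uncertain. Tfrc, the transferrin receptor, and Slc48a1, a heme transporter, fell by 1.00 and 0.90 (SE 0.17 and 0.10). Over the list of 19 genes, 6 were higher and 3 lower (median 0.16).

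Genes of mitosis were mostly higher after crush. Of 35 tested genes of mitosis, kinetochore and cytokinesis 30 were higher and 2 lower, with a median log2 fold change of 3.08 and 29 of them at a rise of at least 2-fold. Members near 0 in sham, such as Bub1 and Cdca8, could pass the filter on low counts only through crushed libraries. For them only a rise could be seen, so this count and median are partly set by the filter. Bub1, a kinase of the spindle checkpoint, was at 0 CPM in 3 sham nerves and at 0.729 CPM or less in the other 2, and stood at 4.5, 8.44, 5.85, 6.27 and 11.1 CPM after crush. Cdca8, a subunit of the chromosomal passenger complex, stood at 0, 0, 1.07, 0.375 and 0.567 CPM in sham and at 9.09, 9.38, 6.41, 11 and 9.4 CPM after crush, with no overlap (log2 fold change 4.46, SE 0.77, adjusted p = 0.000137). The 2 lower genes were Pttg1, whose call was lost without 8 of the 10 libraries left out one at a time and under 3 other settings, and Anln. Anln, an actin-binding protein of the cleavage furrow that is also abundant in myelinating oligodendrocytes, stood at 228, 243, 239, 209 and 326 CPM in sham and at 110.1, 118, 149, 111 and 144 CPM after crush (log2 fold change -0.98, SE 0.12, adjusted p = 3.04e-06).

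Genes of the steps before mitosis had smaller median changes, though such medians also depend on how many members were near 0 in sham. Of 33 genes of DNA replication and nucleotide supply 17 were higher and 0 lower (median 1.06), or 1 lower without crush replicate 4. Rrm2, the small subunit of ribonucleotide reductase, stood at 0, 3.05, 3.12, 0.215 and 1.46 CPM in sham and at 19.7, 24.1, 26.4, 28.1 and 16.1 CPM in crushed nerves (log2 fold change 3.85, SE 0.55, adjusted p = 1.81e-05). Uhrf1, which helps in copying DNA methylation onto new strands, rose by 2.79 (SE 0.36), and the sliding clamp Pcna by 0.60 (SE 0.13, adjusted p = 0.00161). Among 31 cell cycle regulators 15 were higher and 1 lower (median 1.10). Ccna2, the cyclin of S phase and G2, stood at 1.03, 2.58, 3.44, 2.25 and 3.36 CPM in sham and at 22.8, 36.5, 31.8, 32.1 and 31.1 CPM after crush (log2 fold change 3.60, SE 0.26, adjusted p = 3.41e-09), and E2f8, a late repressor of E2F targets, rose by 3.80 (SE 0.66). Of the D cyclins, Ccnd1 was higher, at 0.72 (SE 0.11), and Ccnd2 was the lower gene, at -0.38 (SE 0.11, adjusted p = 0.00935). The lower count was 2 without sham replicate 3 and with the replicate number as a block.

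Replication-dependent histone genes, which are made in S phase, had a higher median change than the histone variants. The list of variants also holds Cenpa, which is counted among the mitosis genes as well. Of 60 replication-dependent histone genes (a list that also holds the pseudogene Hist3h2bb-ps) 43 were higher and 0 lower (median 2.19). Hist1h2bk, a copy of histone H2B, was at 0 CPM in 4 sham nerves and 1.25 CPM in the fifth, and stood at 16.8, 15, 12.5, 10.8 and 6.94 CPM after crush. The limit given for mitosis genes near 0 in sham holds for such histone genes as well. Copies of a histone are nearly identical in their coding sequence, so the share of each is uncertain, and their messages lack the poly(A) tail, which the ribosomal depletion used here does not select for. Of 11 histone variants 6 were higher (median 0.33), among them the centromere variant Cenpa at 2.22 (SE 0.40), H2afx at 1.49 (SE 0.18) and H2afz at 1.17 (SE 0.16).

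Promoters of 3 of these genes are shown because the short words of cell cycle promoters were counted in these lists. TTTGAA is the letters of the CHR element of late cell cycle genes, CCAAT is the word of the factor NF-Y, and TTTCCCGC and TTTGGCGC are words of E2F factors, all searched on both strands and shown in capitals (CCAAT on the other strand reads ATTGG). The windows come from RefSeq, GRCm38.p6, at chr4:124936868-124937167 on the minus strand, chr1:128359656-128359955 on the minus strand and chr13:22035571-22035870 on the plus strand.
Cdca8: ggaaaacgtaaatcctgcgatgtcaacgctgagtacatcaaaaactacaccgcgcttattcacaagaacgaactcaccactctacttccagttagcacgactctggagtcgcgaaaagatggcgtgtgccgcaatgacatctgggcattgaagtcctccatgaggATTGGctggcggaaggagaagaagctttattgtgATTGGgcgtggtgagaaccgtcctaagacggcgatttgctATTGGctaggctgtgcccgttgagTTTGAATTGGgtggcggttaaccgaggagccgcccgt
Mcm6: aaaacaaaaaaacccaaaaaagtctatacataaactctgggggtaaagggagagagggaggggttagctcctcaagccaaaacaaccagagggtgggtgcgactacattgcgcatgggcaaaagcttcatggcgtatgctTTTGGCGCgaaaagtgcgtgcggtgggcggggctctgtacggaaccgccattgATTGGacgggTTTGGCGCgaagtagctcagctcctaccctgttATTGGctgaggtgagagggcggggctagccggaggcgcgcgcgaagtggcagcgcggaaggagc
Hist1h2bk: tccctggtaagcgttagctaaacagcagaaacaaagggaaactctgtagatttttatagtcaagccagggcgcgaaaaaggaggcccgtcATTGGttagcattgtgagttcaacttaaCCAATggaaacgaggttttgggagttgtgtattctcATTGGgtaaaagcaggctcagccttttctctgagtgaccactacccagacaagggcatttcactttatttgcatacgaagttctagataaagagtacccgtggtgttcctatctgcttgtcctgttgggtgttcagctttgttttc
In the Cdca8 window the last ATTGG and the TTTGAA overlap in 1 base. Over all tested genes with a window, 14.3% held TTTGAA, 42.9% CCAAT and 3.4% an E2F word. Of 31 mitosis genes with a window 21 held TTTGAA (67.7%), 22 CCAAT (71%) and 2 an E2F word (6.45%). Of 26 replication genes 3 held TTTGAA (11.5%), 15 CCAAT (57.7%) and 8 an E2F word (30.8%). Of 24 cell cycle regulators 7 held TTTGAA (29.2%), 16 CCAAT (66.7%) and 5 an E2F word (20.8%). Of 53 replication-dependent histone genes 24 held TTTGAA (45.3%), 44 CCAAT (83%) and 1 an E2F word (1.89%). Mcm6, a subunit of the replicative helicase chosen for its E2F words after its values were seen, stood at 13.9, 16.3, 9.12, 13.2 and 8.5 CPM in sham and at 26, 28.2, 17.6, 27.4 and 40.4 CPM after crush (log2 fold change 1.20, SE 0.21, adjusted p = 0.000216). Over all genes called higher these shares were 16.7% for TTTGAA, 43.4% for CCAAT and 3.65% for the E2F words, close to those of all tested genes. A match of letters is not evidence of a bound site.

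**Figure D3:**
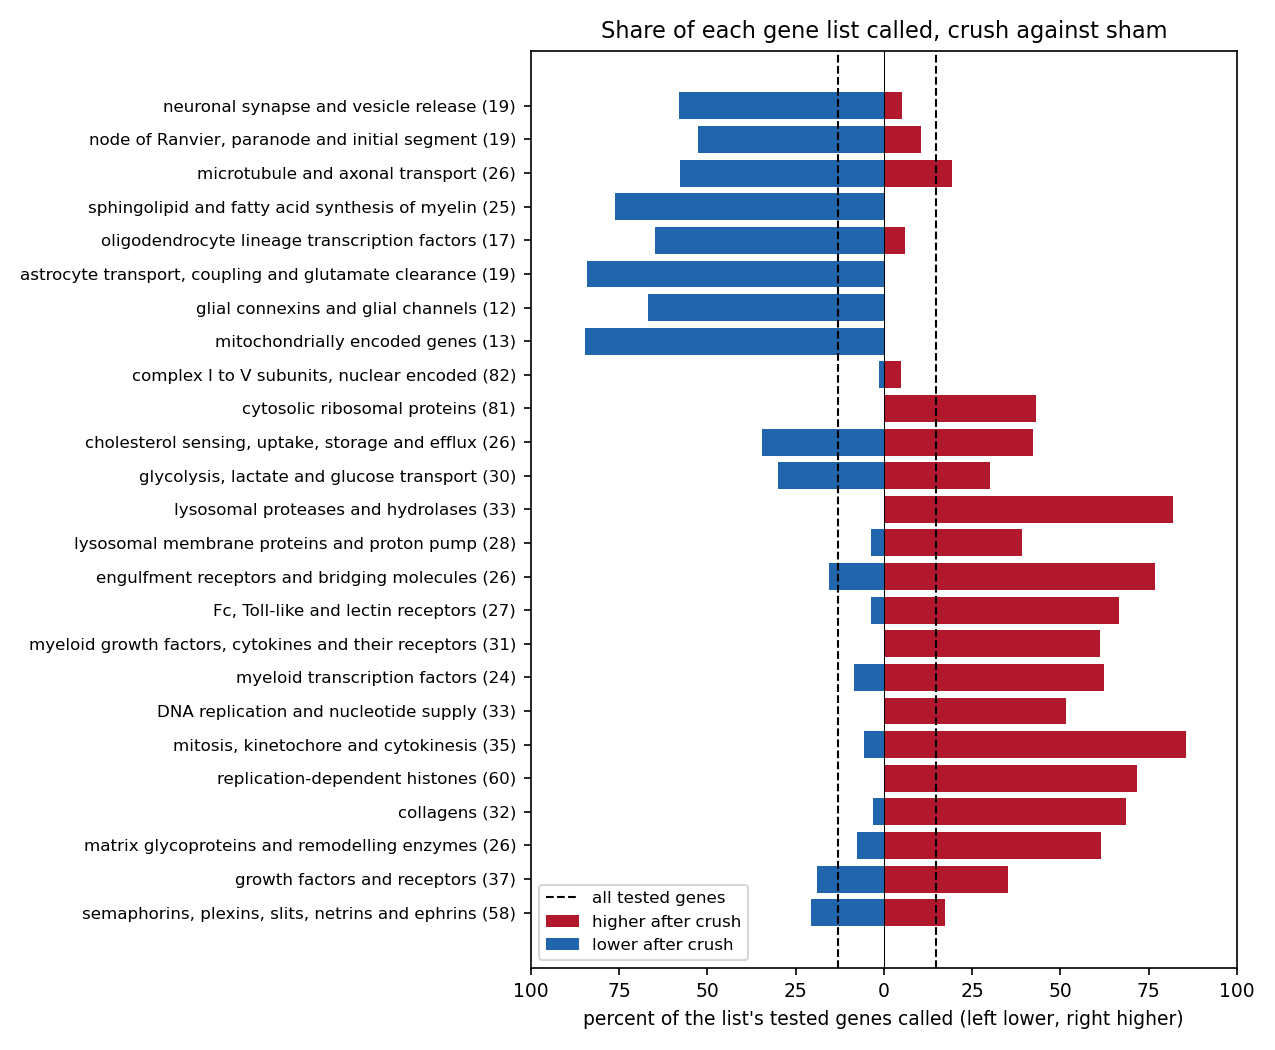
Percent of the tested genes of 25 lists called lower (blue, to the left) and higher (red, to the right) after crush, with the number of tested genes in brackets and dashed lines at the shares over all genes, 12.9% lower and 14.7% higher. Axonal, myelin lipid, astrocyte and mitochondrially encoded lists extend to the left, and lysosome, engulfment, myeloid, mitosis, histone and collagen lists to the right.

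Energy genes are described by the genome that encodes them. Of 13 tested transcripts encoded in mitochondrial DNA 11 were lower and 0 higher (median -0.73), and all 13 lay below 0. mt-Nd1, a complex I subunit, stood at 12021, 10711, 11276, 12442 and 11236 CPM in sham and at 5158, 3909, 4720.5, 4577 and 4156 CPM in crushed nerves (log2 fold change -1.36, SE 0.11, adjusted p = 1.61e-08). Mitochondrial transcripts made up 7.84% to 8.90% of listed counts in sham and 5.11% to 5.97% in crush AAV-null libraries. The 82 tested nuclear genes of complexes I to V (a list gathered by name that also holds Atp5s and Atp5sl) are given beside them, with 4 higher, 1 lower and a median of 0.11. The count of higher genes was 7 without crush replicate 2 or 6 and 2 without crush replicate 3, and that of lower genes 2 without crush replicate 5. Sdha, the flavoprotein of succinate dehydrogenase, was the lower gene, at 145, 142, 144, 154 and 152 CPM in sham and 98.1, 103, 100.3, 106 and 101 CPM after crush, without overlap (log2 fold change -0.54, SE 0.09, adjusted p = 7.38e-05). Cox6b2, a tissue-restricted subunit of cytochrome oxidase, rose from a mean of 6.09 to 19.4 CPM (log2 fold change 1.67, SE 0.24, adjusted p = 1.98e-05). Cytosolic ribosomal protein genes shifted by a small amount, with 35 of 81 higher, 0 lower and a median of 0.30. Rpl10a and Rpl15 were among the highest at 0.80 and 0.77 (SE 0.13 and 0.11), with processed copies elsewhere in the genome that make their counts uncertain. Mitochondrial ribosomal proteins had a median of 0.17 with 8 of 79 higher, a share under that of all genes, and as few as 4 without crush replicate 4 and 5 without sham replicate 5 or 6. One of them was lower, or 0 without any of sham replicates 2, 5 and 6 and crush replicates 4, 5 and 6 and in the fit of the 10 libraries alone.

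**Figure D4:**
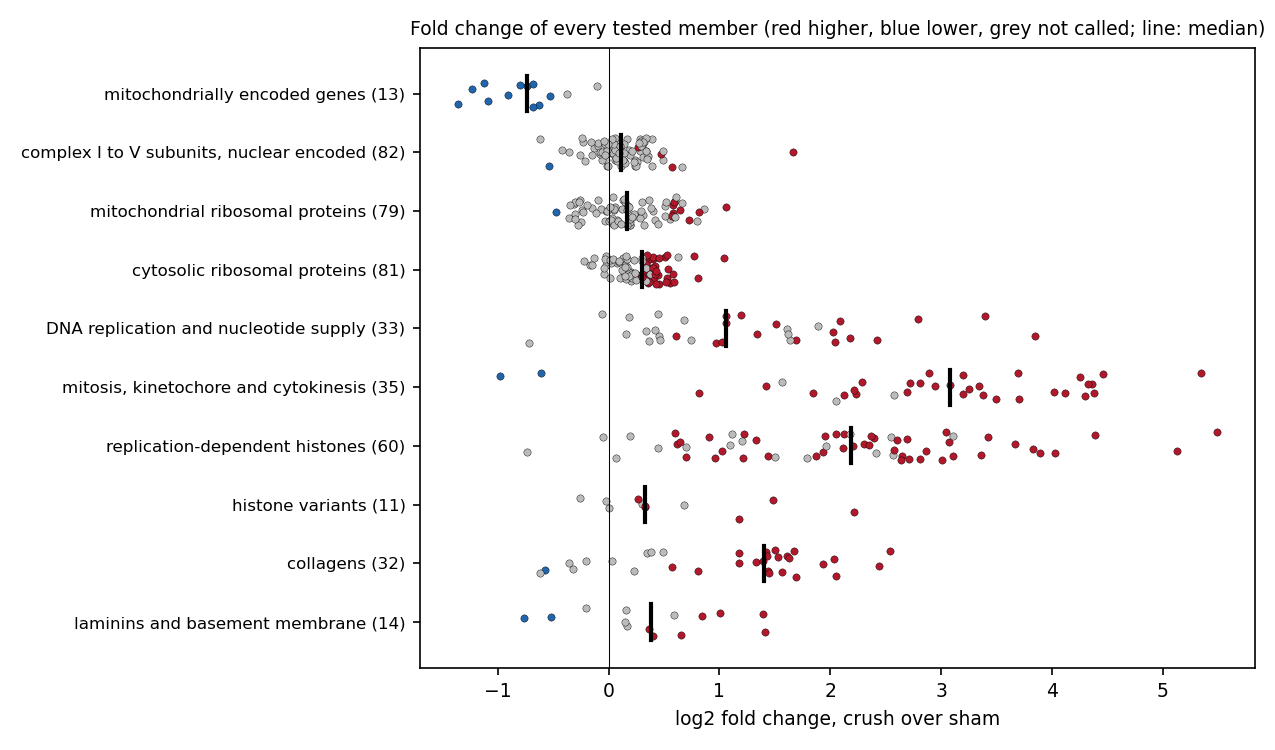
Log2 fold change, crush over sham (horizontal axis), of every tested member of 10 gene families, red where called higher, blue where called lower and grey otherwise, with a line at each median and the number of members in brackets. The 13 mitochondrially encoded genes all lie below 0 while nuclear subunits of the same complexes centre near 0.11, and the mitosis genes centre at 3.08.

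Glycolysis genes went both ways, with 9 of 30 genes higher and 9 lower (median 0.07). Hk3, the hexokinase of myeloid cells, stood at 2.94, 3.65, 1.77, 1.61 and 0.769 CPM in sham and at 15.6, 22.7, 8.63, 11.8 and 7.04 CPM after crush (log2 fold change 2.61, SE 0.42, adjusted p = 6.07e-05). Slc16a3, a lactate exporter of cells that rely on glycolysis, rose by 1.41 (SE 0.32, adjusted p = 0.00189), with 1 crushed nerve inside the sham range. Aldoc, the aldolase of astrocytes, stood at 164, 184, 155, 129 and 211 CPM in sham and at 54.4, 56.4, 86.2, 67.5 and 104 CPM after crush (log2 fold change -1.19, SE 0.20, adjusted p = 9.29e-05). Pfkm, a phosphofructokinase, and Pdk4, a kinase that inhibits pyruvate dehydrogenase, fell by 0.77 and 1.41 (SE 0.12 and 0.29). Antioxidant genes were mixed in the same way, with 9 of 30 higher and 7 lower (median 0.05), or 8 higher and 9 lower with upper quartile scaling, with the replicate block and in the fit of the 10 libraries alone. Gpx3, the secreted glutathione peroxidase, stood at 11.3, 11.9, 24.2, 14.1 and 11.8 CPM and at 111, 115, 86.7, 87.2 and 86.6 CPM (log2 fold change 2.73, SE 0.19, adjusted p = 2.53e-09), while Prdx6, a peroxiredoxin of astrocytes, fell by 0.92 (SE 0.11, adjusted p = 2.63e-06).

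Stress lists held genes of both directions, with more higher than lower in each. The higher and lower shares were 25.9% and 11.1% for stress responses, 34.6% and 15.4% for injury factors, and 36% and 12% for apoptosis regulators. In the list of the unfolded protein and integrated stress responses 7 of 27 were higher and 3 lower (median 0.14). The higher genes included chaperones of the endoplasmic reticulum, such as Sdf2l1 at 1.32 and Calr at 0.76 (SE 0.16 and 0.10). The 3 lower genes were Ddit4, which restrains mTOR, and the serine synthesis enzymes Psat1 and Phgdh, at -0.99, -0.84 and -0.82 (SE 0.15, 0.11 and 0.15). Among 26 injury and immediate early transcription factors 9 were higher and 4 lower (median 0.36). Sox4, a factor of immature glia and neurons, stood at 48.4, 32.5, 52.1, 25.5 and 39 CPM in sham and at 139, 138, 142, 157 and 137 CPM after crush (log2 fold change 1.85, SE 0.15, adjusted p = 1.43e-08). Atf3, a marker of injury in many cell types, rose by 1.51 (SE 0.25, adjusted p = 8.08e-05), and Klf9, a factor of mature cells, fell by 0.70 (SE 0.13). Of 25 apoptosis regulators 9 were higher and 3 lower (median 0.65). Bcl2a1b, a survival factor of myeloid cells with near-identical copies, rose by 2.41 (SE 0.33). All 3 lower genes, Bcl2, Bcl2l1 and Bcl2l2, encode inhibitors of cell death, with log2 fold changes of -0.42, -0.61 and -0.83 (SE 0.14, 0.12 and 0.17). The call of Bcl2 was lost without sham replicate 4 or 6 or crush replicate 2, 3 or 5.

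Matrix genes of scar and sheath were mostly higher. Of 32 tested collagen genes 22 were higher and 1, Col11a2, was lower (median 1.40), or 2 lower without sham replicate 5 or crush replicate 4. Col3a1, the fibrillar collagen of loose tissue and scars, stood at 301, 453, 649, 288 and 191 CPM in sham and at 1061, 1602, 1166, 1969 and 1999.6 CPM after crush, without overlap (log2 fold change 2.05, SE 0.32, adjusted p = 4.93e-05). The largest collagen rises were in genes of lower level. Col2a1, better known from cartilage, stood at 3.53, 4.2, 6.7, 6.44 and 2.96 CPM and at 34, 14.6, 32.5, 29.2 and 27.7 CPM (log2 fold change 2.54, SE 0.26, adjusted p = 2.55e-07), and Col20a1 at 9.7, 11.1, 11.2, 6.54 and 8.82 CPM and at 65.2, 40.5, 49, 55.8 and 47.1 CPM (log2 fold change 2.44, SE 0.19, adjusted p = 7.36e-09). In the basement membrane list 7 of 14 were higher and 2 lower, or 1 lower without sham replicate 3 (median 0.38). Lamb1 and Nid2 rose by 1.40 and 1.42 (SE 0.19 and 0.23), while Lama5 fell by 0.52 (SE 0.13). Of 26 other matrix glycoproteins and modifying enzymes 16 were higher and 2 lower (median 0.92). Tnc, a matrix protein of scars and developing glia, stood at 29.9, 22, 43.5, 15.1 and 7.29 CPM in sham and at 123, 150.4, 129, 146 and 166 CPM after crush (log2 fold change 2.60, SE 0.31, adjusted p = 2.02e-06). Thbs1, which activates TGF-beta, rose by 2.41 (SE 0.34). Sparcl1, a synapse-promoting protein of astrocytes, stood at 787, 745, 598, 744 and 803 CPM in sham and at 357, 269, 370.0, 329 and 370.1 CPM after crush (log2 fold change -1.12, SE 0.10, adjusted p = 7.59e-08), while its relative Sparc had 0.15 (SE 0.09) and did not pass the test.

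Enzymes that cut matrix and their inhibitors were also more often higher than lower. Of 39 proteases and inhibitors 17 were higher and 2 lower (median 0.58). Mmp12, the elastase of macrophages, was at 0 CPM in 2 sham nerves and at 2.86 CPM or less in the other 3, and stood at 22.8, 61.5, 10.7, 16.2 and 7.37 CPM after crush (log2 fold change 4.44, SE 0.79, adjusted p = 0.000201). Mmp13, a collagenase, was at 0 CPM in all 5 sham nerves and at 0.244, 12, 2.86, 3.57 and 3.28 CPM after crush. Timp2, an inhibitor, rose by 0.47 (SE 0.09, adjusted p = 0.000391). Of 26 integrin genes (a list gathered by name, which also holds Itgbl1 and Itgb1bp1) 10 were higher and 2 lower (median 0.46). The leukocyte chains Itgb2 and Itgam rose by 2.07 and 1.93 and the vitronectin receptor chain Itgb5 by 1.51 (SE 0.15, 0.14 and 0.14). Itgb8 and Itgb4, which anchor glia to matrix and basement membrane, fell by 0.58 and 0.49 (SE 0.10 and 0.10).

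Growth factor genes changed in both directions. Of 37 tested growth factors, binding proteins and receptors 13 were higher and 7 lower (median 0.14). Igf1, a growth factor that activated microglia and macrophages make, stood at 4.66, 7.38, 14.1, 11.8 and 3.97 CPM in sham and at 166, 239.8, 96.9, 158 and 176 CPM in crushed nerves, a rise without overlap (log2 fold change 4.33, SE 0.31, adjusted p = 2.21e-09). Igfbp4, which binds it, rose by 2.56 (SE 0.37, adjusted p = 2.08e-05), while Igfbp5, the most abundant gene of the list, had 0.14 (SE 0.21) and did not pass the test. On the glial side, Ntrk2, the receptor of BDNF, stood at 881, 783, 753, 782 and 996 CPM in sham and at 429.5, 356, 451, 375 and 384 CPM after crush (log2 fold change -1.07, SE 0.10, adjusted p = 1.49e-07). Fgfr2, a receptor of oligodendrocytes and astrocytes, and its ligand Fgf1 fell by 1.13 and 1.09 (SE 0.12 and 0.11).

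Guidance genes were close to balanced, with 10 of 58 higher and 12 lower (median 0.19), and the members that moved most belong to different receptor systems. Plxnc1, the semaphorin 7A receptor of myeloid cells, stood at 7.35, 9.41, 11.1, 4.99 and 6.64 CPM in sham and at 43.4, 46.8, 33.8, 20.6 and 47.5 CPM after crush (log2 fold change 2.28, SE 0.23, adjusted p = 2.72e-07). Nrp1, which binds semaphorins and VEGF, and Efnb1 each rose by 1.34 (SE 0.17 and 0.21). Efnb3, the ephrin that myelin uses to block axon growth, stood at 397, 364, 294, 306 and 411 CPM in sham and at 122, 129.9, 187, 157 and 123 CPM after crush (log2 fold change -1.30, SE 0.13, adjusted p = 2.94e-07), and its receptor Ephb1 fell by 1.26 (SE 0.11).

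In the TGF-beta and BMP pathways 12 of 37 genes were higher and 6 lower (median 0.07). The ligand Inhba, an activin chain, rose by 2.41 and the secreted Fstl1 by 1.75 (SE 0.54 and 0.29), while Bmpr1b, a BMP receptor, and Id4, a target of BMP signals, fell by 1.39 and 1.16 (SE 0.18 and 0.11). Hhip, which traps Hedgehog ligand at the cell surface (chromosome 8, 79965851 to 80058006, minus strand, mm10), fell further than these, from 45, 20.8, 36.3, 37 and 37.4 CPM in sham to 4.99, 6.27, 6.41, 3.48 and 6.8 CPM after crush, without overlap (log2 fold change -2.66, SE 0.25, adjusted p = 1.20e-07). Ptch1, the Hedgehog receptor that is itself a target of the pathway, was also lower, at -0.56 (SE 0.14, adjusted p = 0.0037). In the whole list of Notch and Hedgehog genes 2 of 25 were lower and 2 higher (median 0.15).

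Vessel genes had no common direction, and some clock genes were lower. Of 30 vessel genes 6 were higher and 4 lower (median 0.10), and the junction protein Tjp1 had a log2 fold change of -0.01 (SE 0.09). Icam1, to which leukocytes adhere, stood at 10.8, 15.4, 17, 13.5 and 13.8 CPM in sham and at 32.3, 48.1, 32.5, 33.9 and 41.1 CPM after crush (log2 fold change 1.41, SE 0.18, adjusted p = 5.10e-06). Apln, a peptide of sprouting vessels, and Slc2a1, the glucose transporter of the blood-brain barrier, fell by 1.36 and 0.69 (SE 0.21 and 0.10). Of 15 clock genes 4 were lower and 0 higher (median -0.42), among them Nr1d1 and Npas2, which fell by 1.01 and 1.00 (SE 0.13 and 0.21). The exons of Nr1d1 overlap those of Thra on the other strand, and the labels do not say how strand was handled in counting. The times of day at which nerves were collected are not given, and their part in these values was not tested.

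Markers of cells from outside the nerve, and of its sheath, were read in each library. The T and NK cell markers were low, with a summed level of 15.9 to 33.7 CPM in sham and 6.93 to 18.5 CPM in crushed nerves, and 0 of 8 were higher and 1 lower, or 2 lower without crush replicate 4. The 5 B and plasma cell markers summed to 535 to 728 CPM in sham and 193 to 513 CPM in crushed nerves, and 0 were higher and 2 lower. Igkc, an antibody light chain constant gene, stood at 360.0, 332, 233, 479 and 313 CPM in sham and at 161, 67.6, 150.1, 103 and 55.3 CPM after crush (log2 fold change -1.68, SE 0.37, adjusted p = 0.00173). Of the 2 neutrophil markers tested, Csf3r, which macrophages also express, rose by 1.23 (SE 0.13), and Retnlg reached at most 1.86 CPM in any library. The 9 skeletal muscle markers varied between libraries in both groups, with a summed level of 86.3 to 762 CPM in sham and 27 to 224 CPM in crushed nerves. Ttn, the giant muscle protein, stood at 74.8, 64.2, 64.7, 537 and 46.5 CPM and at 45.5, 29.1, 152, 26.8 and 11.4 CPM, high in sham replicate 5 and crush replicate 4. None of the 9 passed the test with all libraries, and 3 were lower without crush replicate 4 and 1 without sham replicate 4. Of 13 markers of meninges and sheath 1 was higher and 2 lower, and the count of higher ones ranged from 0 to 3 without single libraries, with 3 higher and 2 lower without crush replicate 2. Ptgds, a prostaglandin synthase listed as a sheath marker, stood at 2969, 2716, 3333, 1536 and 817 CPM in sham and at 743, 749.7, 1000.4, 1093 and 727 CPM after crush, with overlap (log2 fold change -1.40, SE 0.29, adjusted p = 0.000854). Which cells gave the Ptgds value was not tested. The part of muscle and sheath tissue in the results above was not tested.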

How the data were processed

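RNA-seq was done on 15 optic nerve samples, of which the 10 with AAV-null were compared. Per the labels' protocols, RNeasy Micro columns and DNase gave the RNA, from which ribosomal RNA was depleted. Of the 2 library kits named in the labels (Nugen AnyDeplete, 20 ng of RNA, and TruSeq Stranded Total, 500 ng), the one used for each library is not stated there. Per the submitters' processing notes, Trimmomatic 0.32, STAR 2.5.3a, RSEM 1.2.31, R 3.2.3 and DESeq2 were used with mm10. No label, note or header states the gene annotation or how strand was treated in counting.

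The table that the authors deposited lists 14237 genes. Its values, per the file headers, are an RSEM expected count and an FPKM value per gene and library, the second scaled by the authors for gene length and depth. The authors also deposited a log2 fold change and an adjusted p-value per pair of groups, which were not used. The table leaves out genes of low level, so library totals cover listed genes only. Of the expected counts 13.7% to 18.3% per library were not whole and were rounded.

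The test was edgeR's quasi-likelihood test (edgeR 4.0.16, R 4.3.3) after TMM scaling and filterByExpr, in 1 model that gave each of the 3 groups a mean and left 12 residual degrees of freedom, and p-values were adjusted by Benjamini-Hochberg over all 14194 tested genes. SE is the absolute log2 fold change over the square root of the F statistic. CPM values of replicates 2 to 6 are given in that order. The biological coefficient of variation was 0.37, and for genes of few counts counting error adds to this spread. No 2 libraries of a group were alike within sampling noise. Alternatives were RLE and upper quartile scaling, no filter, a mean of at least 1 CPM, limma-voom (limma 3.58.1) with quality weights, DESeq2 1.42.0, the 10 libraries alone, replicate number as a block, abundant, mitochondrial and Rn genes left out, and each library left out. The test was tried on simulated data.

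The comparison, the gene lists and the tests were chosen with earlier results of these data known. Some genes stand in more than 1 list, such as Gja1, Cenpa and Runx1, so the counts of different lists are not independent. Genes were named by rule. These are the 15 largest changes each way among called genes with at least 5 CPM and no overlap, the 10 largest FPKM differences each way among called genes, up to 3 called genes each way of at least 1 CPM (with or without overlap) and the most abundant member of each list, all members of lists of 12 or fewer, and the 5 smallest changes above 100 CPM. Others are marked as named after their values were seen, and some genes that the rule selects are not reported here. Of 178 genes named, 23 overlap another tested gene in their exons (such as Ccna2 with Exosc9, Hk3 with Unc5a, Timp3 with Syn3 and Stab1 with Nt5dc2, all on the other strand, and Spp1 with Gm42793, Fgfr2 with Ctbp2 and Bcl2l2 with Gm20521 on the same strand), and their reads may not be separable. Promoter windows are from RefSeq GRCm38.p6, gene positions from GENCODE M21.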

Additional observations from a re-analysis of the deposited data

Results flagged for a closer look

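The 5 values per group of each gene named in the text were searched for a single library far from the other 4, judged by the gap to its nearest neighbour over the whole range (above 0.71). For independent, normally distributed values about 5% of groups would hold such a value. Of 368 groups 36 had one, counting measures of the libraries themselves. The 2 shares cannot be compared strictly, since CPM has a floor at 0 and all groups come from the same libraries. A gene at 0 in 4 libraries gives such a value by construction, as Retnlg and Hist1h2bk did in sham.

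Crush AAV-null replicate 6 was far from its group in 4 measures of the library, with the largest total at 29138927 expected counts, 3.18% of genes at 0, a position of -99.7 on the second principal component and 438 genes more than 2 log2 units below the group mean.

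In sham replicate 3 the high value was that of Notch1 at 208 CPM, and the low value was that of Ap2b1 at 135 CPM. In sham replicate 4 the high values were those of Apoc2 at 1.86 CPM, Atp6v0d2 at 1.35 CPM, Ccnd1 at 430.5 CPM, Gpx3 at 24.2 CPM, Gusb at 46.8 CPM, Igfbp4 at 39.2 CPM and Retnlg at 0.0931 CPM. In sham replicate 5 the high values were those of Cox6b2 at 8.47 CPM and Ttn at 537 CPM. In sham replicate 6 the high values were those of Bub1 at 0.729 CPM, Hist1h2bk at 1.25 CPM and Tyro3 at 97.3 CPM. In crush replicate 2 the high values were those of Ap2b1 at 170.0 CPM, Panx2 at 3.28 CPM and Tubb2b at 222 CPM. In crush replicate 3 the high values were those of Actb at 6714 CPM, Calr at 584 CPM, Ch25h at 78.2 CPM, Fcer1g at 255 CPM, Mmp12 at 61.5 CPM and Mmp13 at 12 CPM, and the low values were those of Adora1 at 90.1 CPM and Col11a2 at 31.9 CPM. In crush replicate 4 the high values were those of Slc48a1 at 189 CPM, Sox8 at 170.0 CPM and Ttn at 152 CPM, and the low value was that of Slc16a3 at 10.8 CPM. In crush replicate 5 the high value was that of Sox4 at 157 CPM. In crush replicate 6 the high value was that of Efnb1 at 36.7 CPM, and the low value was that of Pcna at 48.9 CPM. The genes with high values in sham replicate 4 were all called higher after crush, against 14.7% of all tested genes. The search covered only named genes, which were chosen largely for being called. This run of calls is therefore not a result about that library.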

How the results depend on the processing

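Of the 178 named genes followed through the alternatives, none that was called in the main test or in an alternative changed direction there. Genes called in neither, such as Timp3, were not followed for their sign. The numbers of genes called higher and lower were 1869 to 2099 and 1602 to 1777 when 1 library at a time was left out, against 2087 and 1825, and over all settings 3483 to 4146 genes were called, of which 3370 to 3907 were also among the 3912 of the main test. The share of higher genes among those called ran from 50.6% (upper quartile scaling) to 54.3%, and no scaling moved the median of all genes by more than -0.0228. With replicate number as a block 3881 genes were called, 3685 of them shared with the main test. The replicate numbers did not pair the samples: deviations of same-numbered libraries correlated at -0.053 to -0.011, and 0 of 5 correlated best with its own number. The genes named in the text kept their side of the threshold under most settings, with 174 to 178 of the 175 to 178 tested doing so in each. Those that lost their call under some setting are Bcl2, Gapdh, Maf, Pttg1 and Retnlg, and Ttn was called lower without crush replicate 4. Medians of lists near 0 changed sign in up to 3 lists of 61 in a setting. For low genes the number of counts limits what can be seen, and folds of genes at 0 in 1 group are not given.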

Other observations

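Several genes that laboratories use as references for quantitative PCR differed between the groups, so that a ratio to them would shift. Of 15 such genes 5 were higher and 3 lower after crush (median 0.15). Gusb was the furthest, as given among the lysosomal enzymes, and Actb, the beta actin gene, stood at 3315, 3271, 3435, 3036 and 2933 CPM in sham and at 5374, 6714, 5239, 5239 and 5324 CPM after crush, without overlap (log2 fold change 0.80, SE 0.09, adjusted p = 1.19e-06). Gapdh was higher by a smaller amount, at 0.34 (SE 0.10, adjusted p = 0.0196), and lost its call without sham replicate 3 or crush replicate 3. Sdha and Tfrc, given above, were among the lower genes.

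Further lists held both higher and lower genes. Of 57 cadherins and protocadherins 8 were higher and 11 lower, or 7 and 7 without crush replicate 3. Cdh11, a cadherin of mesenchymal cells, stood at 40.8, 51.6, 54.2, 46 and 45.1 CPM in sham and at 106, 154, 101, 169.7 and 166 CPM after crush (log2 fold change 1.55, SE 0.19, adjusted p = 2.80e-06), and Cdh20 and Cdh19 fell by 0.92 and 0.88 (SE 0.19 and 0.16). Of 20 receptor genes for glutamate and GABA 3 were higher and 6 lower, or 3 and 3 without crush replicate 3 or 6. Gria3 was higher, at 7.64, 13.7, 10.2, 13.5 and 10.4 CPM in sham and 24.2, 24.5, 27.4, 26 and 29.2 CPM after crush (log2 fold change 1.24, SE 0.17, adjusted p = 1.18e-05), while Gabbr1, a subunit of the GABA-B receptor, fell by 0.95 (SE 0.15). Of 25 genes of the Notch and Hedgehog pathways 2 were higher and 2 lower, and between 1 and 5 were higher over the alternatives. Notch4, a Notch receptor of vessels, rose by 1.60 (SE 0.20), and Notch1 had -0.17 (SE 0.11) and did not pass the test. Of 19 cytosolic heat shock genes 4 were higher and 3 lower, or 2 and 4 without crush replicate 6. Cryab, a small heat shock protein abundant in glia, fell by 0.71 (SE 0.10, adjusted p = 2.48e-05).

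By annotated class (GENCODE M21), 2037 of 12955 protein-coding genes were higher and 1748 lower, 4 of 206 antisense genes were higher and 17 lower, and 17 of 194 long intergenic RNA genes were higher and 17 lower. Antisense values can hold reads of the partner gene, since the labels do not say how strand was handled. There were 17 called genes at 0 in all 5 sham nerves and 6 at 0 in all 5 crushed nerves.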
